A study of Mus musculus with 6 samples.

Results

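Heat-shock chaperones that are known as products of the transcription factor HSF1 were described in lung endothelial cells (ECs) through 10 genes: Hspa1a, Hspa1b, Hspa2, Hspa4, Hspa8, Hsph1, Dnajb1, Dnaja1, Hsp90aa1 and Hspe1. The genes were chosen by their place in this chaperone family and with the shTNC minus shControl values of the same arrays in view, in which Hspa1a and Hspa1b stood out, so their differences are given as a description and without a test. Every probe set that the platform annotation ties to 1 of these symbols alone was taken, which gave 27 of the 45101 probe sets and 10 of 18194 genes. All 6 samples came from immunodeficient NSG mice, 6 to 8 weeks of age, whose lungs were taken 20 days (3 weeks in the labels) after MDA231-LM2 cells, cells selected for growth in lung from the human breast tumour line MDA-MB-231, had been injected into a vein. In 3 samples the cancer cells carried a control hairpin RNA (shControl) and in the other 3 a hairpin against the matrix protein tenascin C (shTNC), and each sample was hybridised to 1 Affymetrix mouse array. The study reports that knockdown of tenascin C reduced colonization of the lung by these cells. The part of metastatic load in the differences given here was not tested. The hairpin acted in the human cancer cells, whereas the arrays measured mouse ECs sorted for CD31 after cells with markers of blood, epithelium, fibroblasts and cancer cells had been removed. The lungs had been digested with enzymes before the sort, and how many animals stood behind a sample is not given in the sources used here.

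Heat-shock proteins bind unfolded or damaged proteins and help them to refold. HSP70 proteins are loaded with clients by HSP40 co-chaperones and emptied by nucleotide exchange factors, HSP110 proteins among them, and many clients pass on to HSP90 or, in mitochondria, to the HSP60 and HSP10 chamber. Under heat, oxidation or other protein stress HSF1 forms trimers and binds heat-shock elements, arrays of the unit NGAAN in alternating orientation, in front of chaperone genes. Hspa1a and Hspa1b are the inducible cytosolic HSP70 genes, low in unstressed cells, while Hspa8 and Hsp90aa1 also have high basal expression. ECs are known to induce HSP70 on heat, shear and inflammatory stress.

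The promoters are shown because HSF1 acts through them. RefSeq promoter sequences of GRCm38.p6 were at hand for 8 of the 10 genes, and the 250 bases before each start were searched for a pair of units, written GAANNTTC or TTCNNGAA and the same on both strands. A pair was found for 5 of the 8 genes (for Dnaja1 in 1 of its 3 windows), and in 14.5% of all 27025 genes with a promoter sequence. A triplet, which is a pair followed after NN by a further unit in the orientation of the first and so overlaps it, was found in 0.466% of all 32851 windows and, among the chaperone genes, in the Hspe1 window. The window of Hspa1a lies on the minus strand at chr17:34972157-34972406 and that of its neighbour Hspa1b on the minus strand at chr17:34959239-34959488. Both are printed 5′ to 3′ with the pair in capitals, and they were equal at 247 of 250 bases.
Hspa1a: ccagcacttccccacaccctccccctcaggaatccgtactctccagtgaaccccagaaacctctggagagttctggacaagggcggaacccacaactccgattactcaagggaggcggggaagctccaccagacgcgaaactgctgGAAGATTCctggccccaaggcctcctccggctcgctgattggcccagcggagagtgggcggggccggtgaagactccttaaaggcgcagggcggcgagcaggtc
Hspa1b: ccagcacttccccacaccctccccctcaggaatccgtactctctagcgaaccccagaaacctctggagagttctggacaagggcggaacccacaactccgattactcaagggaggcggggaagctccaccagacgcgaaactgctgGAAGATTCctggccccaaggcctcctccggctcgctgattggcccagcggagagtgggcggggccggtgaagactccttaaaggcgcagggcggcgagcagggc

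The other chaperone genes with a pair are shown with 12 bases on each side, to set their elements beside that of the HSP70 genes. The stretches lie at chr5:149636350-149636381 on the minus strand for Hsph1, at chr4:40722332-40722363 on the plus strand for Dnaja1 and at chr1:55088047-55088088 on the plus strand for Hspe1. Capitals again mark pairs, and in Hspe1 the run in capitals holds 3 overlapping pairs and 2 triplets.
Hsph1: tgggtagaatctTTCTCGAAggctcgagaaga
Dnaja1: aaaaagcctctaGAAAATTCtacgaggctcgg
Hspe1: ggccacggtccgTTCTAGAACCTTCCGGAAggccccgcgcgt

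None of the searched windows of Hspa2, Hspa4 and Dnajb1 held these exact letters, which says nothing about HSF1 at other sequences. Of 21 further HSF1 target genes with a promoter sequence 5 held a pair, namely Hspb1, Hspd1, Dnajb4, Fkbp4 and Zfand2a. A triplet was held by 1 of the 21. Over all genes with a promoter sequence the shares were 14.5% for a pair and 0.514% for a triplet. The pair lies 104 to 97 bases before the start in both Hspa1a and Hspa1b. The CCAAT letters, on either strand, were present in at least 1 window of 6 of the 8 chaperone genes and of 37.5% of all genes, and Dnajb1 and Dnaja1 also had a window without them.

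The arrays were alike in distribution, and any pair correlated with r between 0.986 and 0.994 over all probe sets. The array of shControl replicate 2 stood apart on the first principal component with -43.6, while shControl replicates 1 and 3 had -11.1 and 0.228 and the shTNC arrays 16.1 to 21.1. The 3′ minus 5′ signal of the Actb control probe sets, a sign of RNA integrity, was 0.276 to 0.291 on shControl arrays and 0.197 to 0.274 on shTNC arrays, while that of Gapdh was 0.558 to 0.567 and 0.499 to 0.581. The 10 endothelial markers were all above background, with a median difference of -0.013, and their mean level was 13.62 to 13.67 in shControl and 13.63 to 13.65 in shTNC. Probe sets whose mean lay under 7.48 were taken as near background, a level that 95% of the 44 probe sets for olfactory receptors stayed below.

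Inducible HSP70 was higher in shTNC ECs in every probe set that measures it. Hspa1a (1452388_at) had log2 levels of 8.59, 8.39 and 9.95 in shControl replicates 1 to 3 and of 10.25, 10.41 and 10.98 in shTNC replicates 1 to 3. The groups did not overlap, but shControl replicate 3 lay 1.36 above the other shControl arrays and only 0.30 below the lowest shTNC array. The group means were 8.97 ± 0.85 (SD, n = 3) and 10.55 ± 0.38, a difference of 1.57 ± 0.38 (SE) on the log2 scale, or 2.97-fold. In bulk samples a change in RNA per cell and a change in the share of cells with the RNA cannot be told apart.

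Hspa1b (1452318_a_at) had the same order of arrays. Its levels were 9.58, 9.58 and 10.60 in shControl and 10.93, 11.28 and 11.65 in shTNC, so that shControl replicate 3 again lay between its own group and shTNC. The difference was 1.37 ± 0.29 (SE), or 2.58-fold. The dimmer probe sets of the gene differed by 1.12 ± 0.21 (1427127_x_at) and, near background, by 1.24 ± 0.23 (1427126_at), and in each the shTNC arrays lay above all shControl arrays. The shControl levels of 1427127_x_at were 6.87, 6.82 and 7.41, all under the background level of 7.48. Its mean passed that level only through the shTNC arrays. Hspa1a and Hspa1b encode nearly identical proteins from near-identical transcripts, and the suffixes of some of these probe sets mark probes that match several transcripts, so the share of each gene in these signals is uncertain.

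The spread of inducible HSP70 within shControl was itself large on these arrays. The SD of Hspa1a in shControl was 0.85 and that of Hspa1b 0.59, against a median SD of 0.143 over the 30287 probe sets above background. Only 0.106% and 0.641% of those probe sets had a larger SD in shControl than Hspa1a and Hspa1b. Both genes had stood out on these same arrays before they were chosen, so nothing is read from that rank. Without shControl replicate 3 the differences were 2.06 for Hspa1a and 1.71 for Hspa1b, and without shControl replicate 2, the array that stood apart, 1.28 and 1.20. Over all alternatives Hspa1a stayed between 1.28 and 2.06 and Hspa1b between 1.19 and 1.71.

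**Figure D1:**
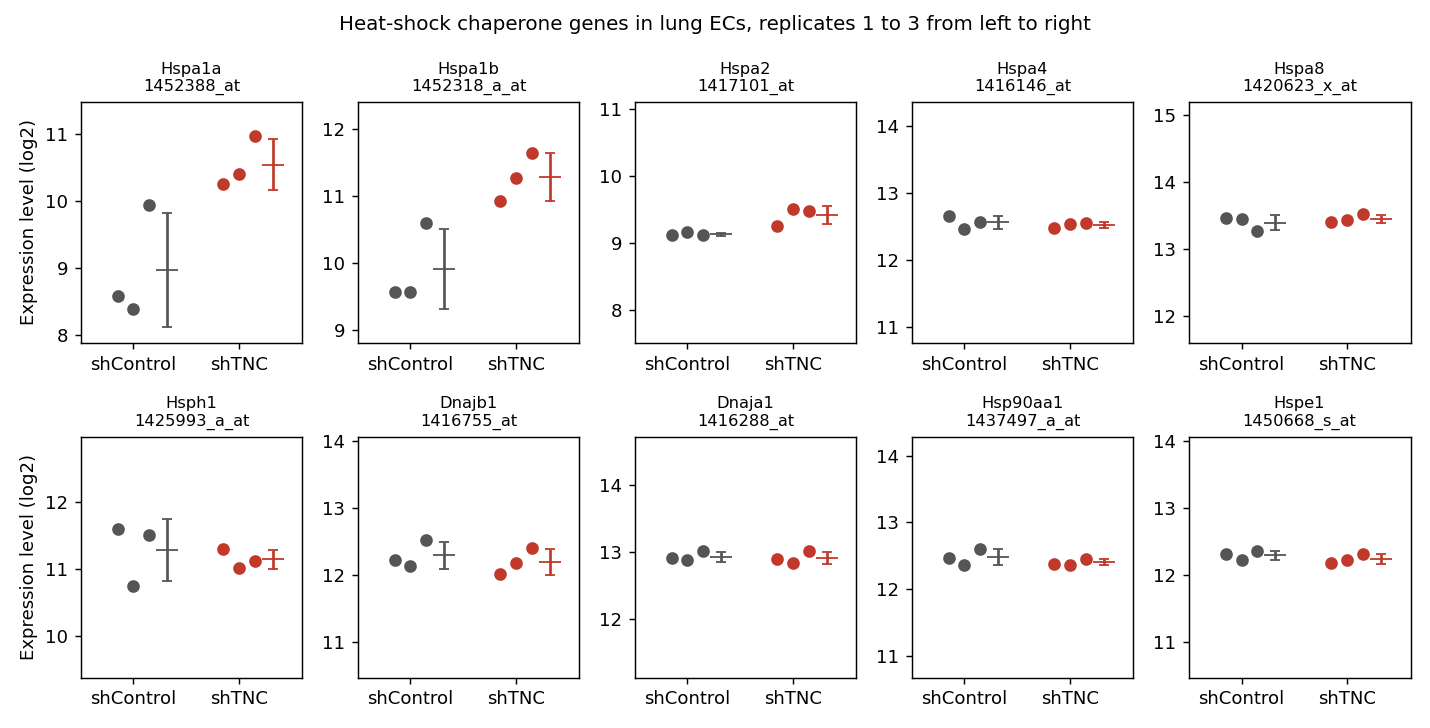
Expression level (log2, y axis) of the probe set that stands for each of the 10 chaperone genes, as 1 point for each array, with group means and SD bars (n = 3), and the same height of 3.6 log2 units in each panel. Hspa1a and Hspa1b are separated between shControl and shTNC, with shControl replicate 3 nearest to shTNC, while the groups overlap for the other genes apart from Hspa2, and shControl replicate 2 lies low for Hsph1.

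The constitutive HSP70 gene Hspa8, which encodes HSC70, the housekeeping member of the family, showed a far smaller difference. Its brightest probe set (1420623_x_at) had levels of 13.46, 13.44 and 13.27 in shControl and 13.40, 13.42 and 13.52 in shTNC, with overlapping groups and a difference of 0.06 ± 0.09 (SE). Of the 4 probe sets of Hspa8 all had a positive sign, from 0.06 to 0.29, and the groups did not overlap in 1 of them (1455789_x_at).

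Hspa2 encodes an HSP70 protein best known from male germ cells and also present elsewhere. Its levels (1417101_at) were 9.11, 9.16 and 9.11 in shControl and 9.26, 9.50 and 9.48 in shTNC. The groups did not overlap, the shControl arrays lay close together (SD 0.025, n = 3) and the difference was 0.28 ± 0.10 (SE), or 1.22-fold. Leaving out any 1 array gave values from 0.24 to 0.36. Its window held no heat-shock element pair, in contrast to those of Hspa1a and Hspa1b.

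Hspa4 and Hsph1 encode HSP110-type proteins, which act as nucleotide exchange factors of HSP70. Hspa4 (1416146_at) had levels of 12.65, 12.46 and 12.56 in shControl and 12.47, 12.53 and 12.55 in shTNC, a difference of -0.04 ± 0.09 (SE). Its other probe sets differed by -0.32 to -0.02, and the lowest of these (1440575_at, -0.32 ± 0.09) had shTNC below all shControl arrays. Hsph1, a strongly heat-inducible gene in many cells, had levels of 11.60, 10.75 and 11.50 in shControl and 11.30, 11.01 and 11.11 in shTNC (1425993_a_at). The groups overlapped with a difference of -0.14 ± 0.21 (SE), and leaving out shControl replicate 2 gave -0.41, whereas leaving out shControl replicate 1 gave 0.01. The array with the lowest Hsph1 level, shControl replicate 2, was also the lowest for Hspa1a, but shControl replicate 1 was second lowest for Hspa1a and highest for Hsph1.

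The HSP40 genes were at like levels in both groups. Dnajb1, the inducible HSP40 that stimulates the ATPase of HSP70 and a classical HSF1 target, had levels of 12.22, 12.14 and 12.53 in shControl and 12.01, 12.18 and 12.40 in shTNC (1416755_at). The groups overlapped, with a difference of -0.10 ± 0.14 (SE), and the second probe set differed by 0.06 ± 0.11 in the other direction. As for Hspa1a, replicate 3 was the highest array of each group in the first of these probe sets, but in the second (1416756_at) the highest shTNC array was replicate 2. Dnaja1, which encodes a type I HSP40, differed by -0.02 ± 0.09 (1416288_at), with levels of 12.87 to 13.01 on shControl arrays and 12.83 to 13.01 on shTNC arrays. Its dimmer probe sets differed by 0.13 ± 0.12 (1460179_at) and 0.25 ± 0.13 (1459835_s_at), the last with groups that did not overlap by a margin of 0.06.

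Hsp90aa1 encodes the stress-inducible cytosolic HSP90. Its brightest probe set (1437497_a_at) had levels of 12.48, 12.37 and 12.60 in shControl and 12.39, 12.37 and 12.46 in shTNC, a difference of -0.07 ± 0.09 (SE) with overlapping groups. Of its 5 probe sets 4 had a negative sign, and in 2 of them, 1426645_at at -0.22 ± 0.11 and the dim 1433251_at at -0.37 ± 0.11, shTNC lay below all shControl arrays. The probe set 1438902_a_at differed by 0.09 ± 0.11 the other way, and 1441827_x_at was near background at -0.01 ± 0.08. Hspe1 encodes HSP10, the lid of the mitochondrial HSP60 chamber, and is the chaperone gene with the triplets printed above. Its levels (1450668_s_at) were 12.31, 12.22 and 12.35 in shControl and 12.17, 12.21 and 12.31 in shTNC, a difference of -0.06 ± 0.09. The second probe set of Hspe1 (1422579_at) differed by -0.36 ± 0.15, with groups that overlapped.

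**Figure D2:**
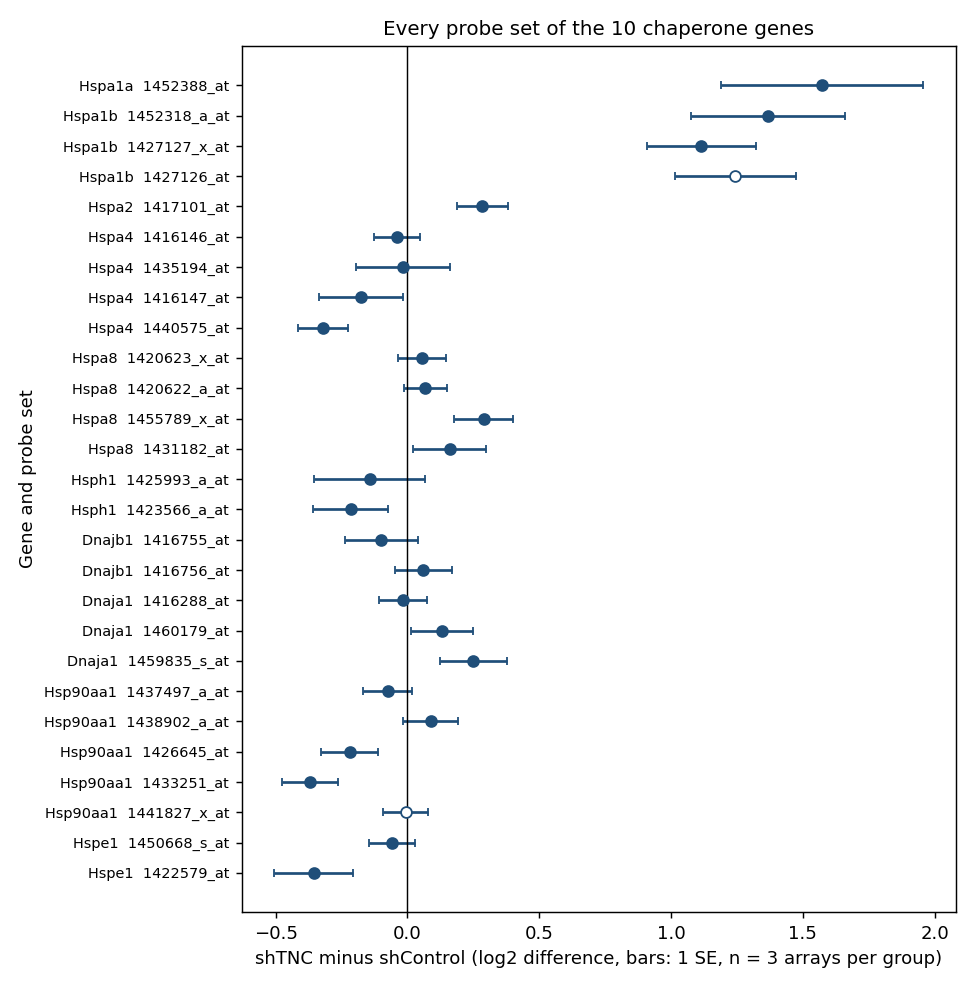
Difference of shTNC minus shControl (log2, x axis) for each of the 27 probe sets of the 10 chaperone genes, ordered by gene and within a gene by mean level, with bars of 1 standard error by limma (3 arrays in each group) and open symbols for probe sets near background. The 4 probe sets of Hspa1a and Hspa1b lie between 1.12 and 1.57, and the other 23 between -0.37 and 0.29.

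Counted over all 27 probe sets, 13 were higher and 14 lower in shTNC, and 25 were above background. The groups did not overlap with shTNC higher in 7 probe sets and with shTNC lower in 3, while over the whole array these shares were 8.92% and 10.5%. The study's thresholds (log2 difference over 0.75, unadjusted p under 0.05, adjusted p under 0.25) were met by the 4 probe sets of Hspa1a and Hspa1b and by no other of the 27. Over the whole array 0.137% of probe sets met them with shTNC higher and 0.0443% with shTNC lower, in all 82. That number rested on single arrays, since it was 0 without shControl replicate 2 or without any 1 of the shTNC arrays, 136 without shControl replicate 1 and 225 without shControl replicate 3. At an adjusted p under 0.05 limma called 0 of 45101 probe sets (0%), against 5846 at an unadjusted p under 0.05. Because the genes were chosen with this contrast known, nothing is read from these counts.

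By 1 probe set per gene, 4 of the 10 chaperone genes were higher and 6 lower, with a median difference of -0.03 that equalled the median of all 18194 genes to 2 decimals. Over all genes 7592 were higher and 10602 lower. The 8 genes other than Hspa1a and Hspa1b had a median of -0.05, and 7 of them lay within 0.25 of 0. Their mean level was 12.09, 11.93 and 12.12 in shControl and 11.99, 12.01 and 12.11 in shTNC, so the groups overlapped. The mean of Hspa1a and Hspa1b was 9.08, 8.98 and 10.27 in shControl and 10.59, 10.84 and 11.32 in shTNC. Of the 8 genes with several probe sets, Dnajb1, Dnaja1 and Hsp90aa1 had probe sets of both signs.

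Other genes that HSF1 is known to drive had small differences in both directions. Of 20 such genes with a probe set, none of them among the 10, 9 were higher and 11 lower with a median of -0.02, and 19 lay within 0.25 of 0. At an unadjusted p under 0.05 there were 0 higher and 1 lower, while over all genes these shares were 4.54% and 7.12%. The 1 lower gene was Hspb8, a small heat-shock protein that works with BAG3 in the clearance of misfolded proteins (1417013_at), at -0.42 ± 0.15 (SE), adjusted p 0.31 in limma. Bag3 itself, a co-chaperone that is strongly induced by HSF1, averaged 10.76 ± 0.29 (SD, n = 3) on shControl arrays and 10.93 ± 0.08 on shTNC arrays, which differed by 0.17 ± 0.14 (SE) with an adjusted p of 0.64 in limma. Its levels were 10.67, 10.53 and 11.08 in shControl and 10.95, 10.84 and 11.01 in shTNC, so that shControl replicate 3 was raised as for Hspa1a and lay above all shTNC arrays. The Bag3 difference was 0.33 when shControl replicate 3 was left out and 0.06 when shControl replicate 2 was. Hspb1, which encodes HSP27 and is abundant in ECs, differed by -0.15 ± 0.08 with an adjusted p of 0.48, although its shTNC arrays lay below all shControl arrays and a second probe set had the opposite sign. Zfand2a and Ahsa2, both induced by protein stress in many cells, differed by -0.18 ± 0.08 and -0.19 ± 0.10. The annotation tied no probe set to Hsf1, Hsp90ab1, Ptges3, Ppid or Ubb alone, so these were not analysed here.

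Of the heat-shock factors, Hsf2, a relative of HSF1 that acts in development and modulates the stress response, had levels of 7.82, 7.66 and 7.84 in shControl and 8.35, 8.39 and 8.11 in shTNC (1444436_at). The groups did not overlap and the difference was 0.51 ± 0.11 (SE), but the limma adjusted p was 0.20, the levels were close to background, and the second probe set differed by 0.05 ± 0.18. Hsf4 differed by 0.07 ± 0.11. Hsbp1, a negative regulator of HSF1, differed by -0.07 ± 0.08, and Hsf2bp, a binding partner of HSF2, by -0.09 ± 0.10.

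The wider chaperone network was measured through 92 genes outside the 10. Of these 39 were higher and 53 lower, against 7592 and 10602 of all 18194 genes. Their median was -0.03, as over all genes, and 87 lay within 0.25 of 0. An unadjusted p under 0.05 was reached by 2 higher genes (2.17%) and 3 lower genes (3.26%), against 4.54% and 7.12% over all genes, and an adjusted p under 0.05 by 0. The higher genes were Hsf2 and Hspa12a, an atypical HSP70 relative, at 0.40 ± 0.13 (SE) with an adjusted p of 0.28 and with a further probe set of opposite sign. The lower genes were Hspb8, Hspb9, a small heat-shock protein known from testis, at -0.27 ± 0.12, and Dnajb12, an HSP40 of the endoplasmic reticulum (ER) membrane that also had a probe set of opposite sign, at -0.25 ± 0.09, with adjusted p of 0.38 and 0.31 in limma. Leaving out shControl replicate 2 gave 2 higher genes (2.17%, against 4.45% of all genes) and 5 lower genes (5.43%, against 5.26%), so that the lower share was then near that of all genes. Leaving out shControl replicate 3 gave 4 (4.35%, against 5.04%) and 2 (2.17%, against 9.55%).

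Within the network the groups of genes had small and mixed differences. HSP70 relatives had a median of 0.05 over 9 genes. Among them Hspa9, the mitochondrial HSP70, differed by -0.0013 ± 0.12 (SE), Hspa4l, an HSP110-type gene, by 0.13 ± 0.12, and Hspa1l, the testis-type gene that lies next to Hspa1a and was near background here, by -0.12 ± 0.17. HSP70 co-chaperones had a median of 0.04, with Bag6 at 0.13 ± 0.13, Sil1 at 0.10 ± 0.08 and St13 at -0.09 ± 0.09. HSP40 genes had a median of -0.02 over 18 genes, with Dnajb2 at 0.20 ± 0.10, Dnajc8 at 0.14 ± 0.08 and Dnajc1 at -0.14 ± 0.08.

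The HSP90 system had a median of -0.04 over 11 genes. Its lowest value belonged to Fkbp5, a glucocorticoid-induced HSP90 co-chaperone, at -0.39 ± 0.20 (SE) with an adjusted p of 0.45, while Unc45a differed by -0.13 ± 0.09 and Stip1, the adaptor between HSP70 and HSP90, by -0.11 ± 0.09. Small heat-shock proteins had a median of -0.13 over 9 genes, 2 of them near background, and Cryaa differed by -0.21 ± 0.12. Chaperonins, which fold proteins in closed chambers, were lower in 9 of 9 genes by 0.10 or less in their brightest probe sets. Over all 18194 genes 10602 were lower. Cct4 had 3 further probe sets above background with the opposite sign and Cct6a 1. Dimmer probe sets of Cct4 were lower by more, at -0.66 ± 0.12 (1456572_x_at) and -0.39 ± 0.12 (1456082_x_at). Cct5 differed by -0.10 ± 0.08, Cct6a by -0.09 ± 0.09, Cct7 by -0.07 ± 0.08, Cct4 by -0.06 ± 0.08 and Hspd1, which encodes the HSP60 partner of Hspe1, by -0.04 ± 0.10.

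Chaperones of other compartments were likewise near 0. ER chaperones and unfolded protein response genes had a median of -0.02 over 16 genes, all within 0.25 of 0. Hspa5, the ER HSP70 known as BiP, differed by 0.18 ± 0.10 (SE) with an adjusted p of 0.49, Dnajb9 by 0.14 ± 0.08, Dnajc3 by -0.16 ± 0.10, Manf by -0.16 ± 0.13 and Hyou1 by -0.13 ± 0.10. Mitochondrial chaperones and proteases had a median of -0.02 over 8 genes, with Afg3l2 at 0.12 ± 0.09, Clpp at -0.11 ± 0.11, Grpel1 at -0.08 ± 0.08 and Trap1 at -0.04 ± 0.08. Oxidative stress genes had a median of -0.08 over 8 genes, with Nqo1 at 0.25 ± 0.12, Txnrd1 at -0.18 ± 0.10, Mt2 at -0.12 ± 0.14 and Srxn1 at -0.11 ± 0.10. None of these genes passed an adjusted p of 0.05 in limma.

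The value of a gene depended on its probe set in several cases. Among the named genes of these lists, Hspb1, Hspa5, Hspa9, Hspa4l, Hspa12a, Dnajb12, Dnajc1, St13, Unc45a, Cct6a, Cct4, Zfand2a, Dnajc3, Afg3l2, Clpp and Trap1 had at least 1 further probe set above background with the sign opposite to the value given. Dnajc3, which encodes a co-chaperone of BiP, had 3, the highest at 0.34 ± 0.14 (SE, 1449373_at). St13, which encodes an HSP70-interacting protein, had further probe sets at -0.42 ± 0.10 (1416851_at) and 0.28 ± 0.11 (1436113_a_at).

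**Figure D3:**
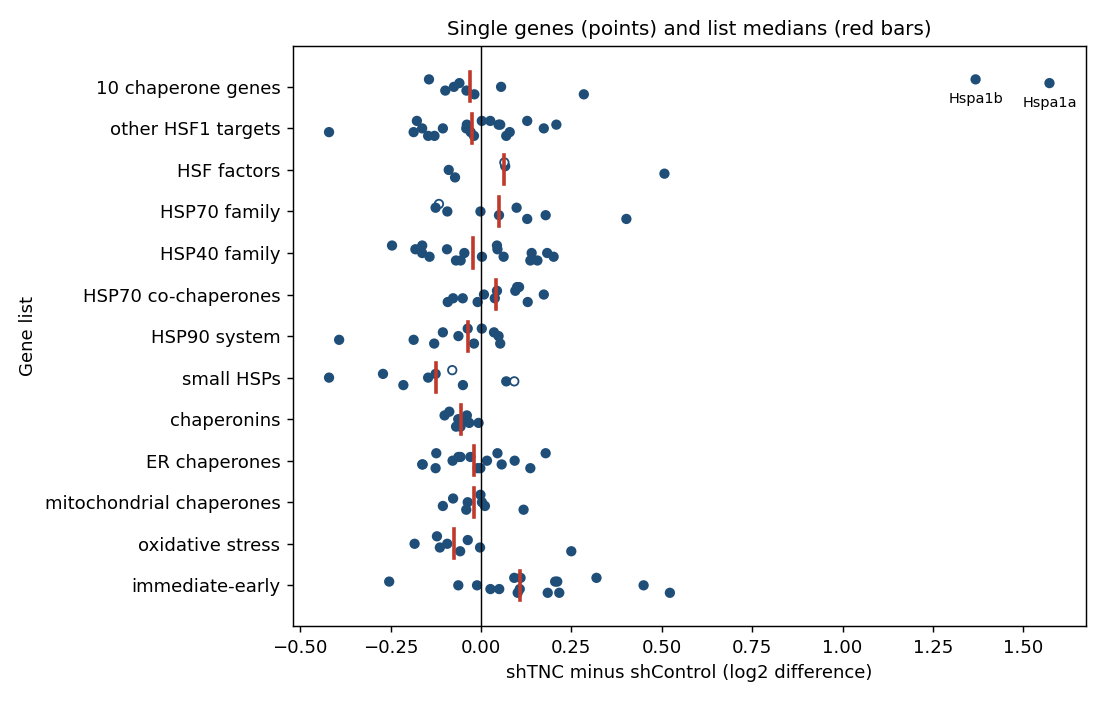
Difference of shTNC minus shControl (log2, x axis) for single genes of each list (points, open where near background) with the median of the list as a red bar. Hspa1a at 1.57 and Hspa1b at 1.37 lie apart from the other 8 chaperone genes and from every gene of the other lists drawn (cell type markers are left out), whose values run from -0.42 to 0.52.

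Immediate-early genes, which are switched on within minutes of many stimuli and of tissue dissociation, were compared because they often accompany inducible HSP70. Of 16 genes 13 were higher and 3 lower in shTNC, while over all 18194 genes 7592 were higher and 10602 lower. The median was 0.11, with 3 higher and 0 lower at an unadjusted p under 0.05, against 4.54% and 7.12% over all genes. Ier2, an early response factor, differed by 0.45 ± 0.09 (SE) with an adjusted p of 0.19, and Junb, a subunit of AP-1, by 0.52 ± 0.13 with an adjusted p of 0.23. Fos and Egr1, further early transcription factors, differed by 0.18 ± 0.08 and 0.21 ± 0.10. Ier2, Junb, Fos and Egr1 were named for having the smallest p of the list. The 3 lower genes were Nr4a1 at -0.25 ± 0.36, Klf6 at -0.06 ± 0.11 and Dusp1 at -0.01 ± 0.10, while Jun differed by 0.11 ± 0.08 and Fosb by 0.03 ± 0.20. The mean level of the list was 12.12, 12.24 and 12.45 in shControl and 12.36, 12.42 and 12.45 in shTNC. Here shControl replicate 3 was level with the highest shTNC array, whereas for Hspa1a and Hspa1b it lay below all shTNC arrays. Junb was 11.70, 11.76 and 12.10 in shControl and 12.44, 12.45 and 12.24 in shTNC. The part of these genes, or of handling of the tissue, in the HSP70 difference was not tested.

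The genes whose values over the 6 arrays were most like those of Hspa1b were named by the root mean square difference of values centred on each gene's mean, over 13434 genes above background. Hspa1a lay at 0.20 from Hspa1b by this measure. Nearest outside the 10 genes were Dbp at 0.20, Sphk2 at 0.21, Cthrc1 at 0.33, Per3 at 0.33 and Tef at 0.37. Dbp and Tef encode transcription factors of the circadian output and Per3 a clock component, Sphk2 encodes a sphingosine kinase, and Cthrc1 a secreted collagen-associated protein.

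Dbp (1438211_s_at) had levels of 11.12, 10.94 and 12.03 in shControl and 12.50, 12.42 and 12.67 in shTNC, with the low pair of shControl arrays and the raised shControl replicate 3 that were seen for Hspa1b. The RefSeq annotation has Sphk2 overlapping Dbp, and the Sphk2 probe set (1426230_at) differed by 1.09 ± 0.24 (SE) while the second one differed by -0.06 ± 0.11, so the first cannot be told apart from Dbp signal. Per3 was 9.76, 9.46 and 10.20 in shControl and 10.71, 10.61 and 10.85 in shTNC, and Tef 11.07, 10.82 and 11.64 against 11.89, 11.84 and 12.09. Cthrc1 was 8.63, 8.74 and 9.10 against 9.77, 9.94 and 9.85, with shControl replicate 3 nearer to its own group than to shTNC. These genes were picked for likeness to Hspa1b over arrays that include the contrast, so no test is given. The hour at which each lung was taken is not given in the sources used here.

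**Figure D4:**
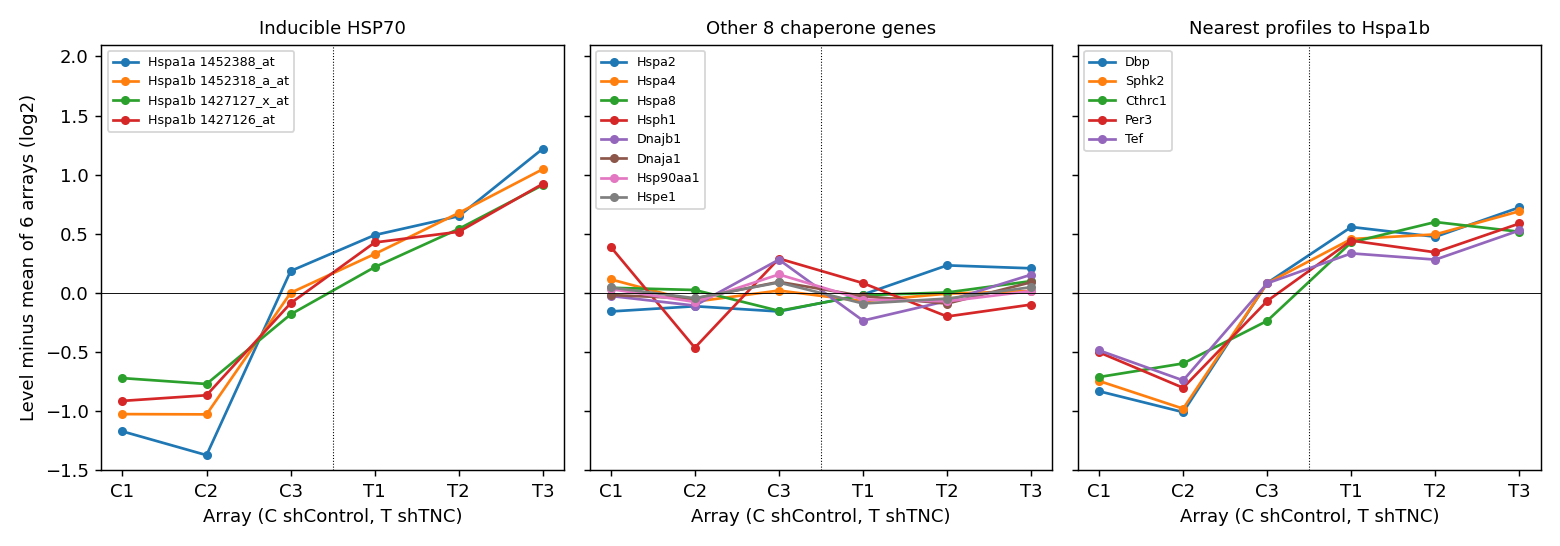
Level minus the mean of 6 arrays (log2, y axis) for the 4 inducible HSP70 probe sets, the other 8 chaperone genes and the 5 genes nearest to Hspa1b, by array (x axis, C for shControl and T for shTNC replicates 1 to 3), where lines only join the points of 1 probe set. In the outer panels C1 and C2 are lowest, C3 is between them and the shTNC arrays, and in the middle panel the 8 genes stay at most 0.46 from their mean.

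Markers of other cells did not all have equal levels in the groups. The mean level of 6 pericyte and smooth muscle markers was 9.16 to 9.22 in shControl and 9.23 to 9.45 in shTNC, with 3 higher and 3 lower. The largest of these differences was that of Myh11, at 0.50 ± 0.10 (SE) with an adjusted p of 0.18 in limma. The mean of 2 erythroid markers, 1 near background, was 7.52 to 7.86 and 7.90 to 7.97. The mean of 7 macrophage and monocyte markers, 2 of them near background, was 8.49 to 8.69 in shControl and 8.25 to 8.41 in shTNC. Of the 7, 6 were lower, where over all 18194 genes 10602 were lower and 7592 higher. The lowest were Chil3 at -0.69 ± 0.21 and Mrc1 at -0.62 ± 0.14, with adjusted p of 0.27 and 0.22 in limma, while Ptprc was higher. Fibroblast markers, with means of 10.11 to 10.39 and 10.24 to 10.55, epithelial markers, with 8.72 to 9.81 and 8.63 to 10.18, and mesothelial markers, with 8.19 to 8.28 and 8.17 to 9.20, overlapped between the groups, though 4 of 5 mesothelial markers were higher with a list median of 0.73. The epithelial markers were uneven. Sftpc averaged 13.01 over all arrays, and Scgb1a1 differed by 0.49 ± 1.34 (SE). Cdh5, an endothelial marker that was not used in the sort, differed by -0.04 ± 0.08 (SE). Of the genes behind the sort, Pecam1 (CD31) differed by -0.03 ± 0.08, Ptprc (CD45) by 0.32 ± 0.25 and Itgam (CD11b), near background, by -0.25 ± 0.17. Epcam differed by -0.06 ± 0.14, Pdgfra by -0.01 ± 0.25 and Pdgfrb by -0.01 ± 0.17. Dimmer probe sets of the last pair gave other values, -0.47 ± 0.23 for Pdgfra (1421916_at) and 0.78 ± 0.17 for Pdgfrb (1436970_a_at). The latter averaged 7.90 on shControl and 8.68 on shTNC arrays, with a limma adjusted p of 0.20, within the study's thresholds. On shControl replicate 3, the array with raised Hspa1a, the pericyte mean was 9.17, the macrophage mean 8.51, the erythroid mean 7.52 and the fibroblast mean 10.11, all outside the range of shTNC, while the mesothelial mean of 8.28 and the epithelial mean of 9.81 lay inside it. The part of other cells in the HSP70 difference was not tested.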

How the data were processed

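Mouse lung ECs, 3 shControl and 3 shTNC samples labelled as biological replicates, were measured on Affymetrix GeneChip arrays from 2 ng of total RNA. The authors deposited 1 log2 level for each probe set and sample and state that raw files were normalized by RMA in Chipster. Many low values are tied. Control probe sets were kept, and nothing was filtered. Probe sets were named by the platform annotation, 34958 of them with 1 symbol, and a gene was represented by its probe set with the highest mean.

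A two-sided limma fit (version 3.58.1, R 4.3.3) gave differences, and p-values were adjusted by Benjamini and Hochberg's method across the 45101 probe sets. SEs are limma's. The fit was tested on simulated data. Promoters were searched in Python 3.11.15.

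The 10 genes and the lists were chosen with earlier results of these data known. Of 195 list entries, 183 were matched. Named genes were the 10, fixed members of the heat-shock network, up to 4 genes per list with the smallest p above background, the 5 nearest profiles, the sort markers and Cdh5. Alternatives were quantile normalization, median centring, a background filter, robust eBayes with a trend, array weights, a replicate block, leaving out each array and the mean of a gene's probe sets. Same-numbered replicates deviated with correlations of -0.085, 0.041 and 0.103, so the numbers were not taken as pairs. The number of arrays limits the precision.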

Additional observations from a re-analysis of the deposited data

How the results depend on the processing

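No probe set passed an adjusted p of 0.05 with quantile normalization, median centring, the background filter or array weights, but 9 did with an intensity trend and robust eBayes, and leaving out single arrays gave between 0 and 4. The number past the study's thresholds, 82, was between 71 and 103 with every array in the fit and between 0 and 225 when 1 array was left out. With the replicate block it was 79, and 0 passed the adjusted threshold. The replicate numbers are not known to pair the samples, and not every shControl array was most like its own number. The median over the 10 chaperone genes ran from -0.067 to 0.051 and that over the other HSF1 targets from -0.031 to -0.0028. Hspa1a and Hspa1b kept their sign in all 13 alternatives, as did Hspa2, Hsp90aa1 and Hspe1, while Hspa4, Hspa8, Hsph1 and Dnajb1 turned in 1 and Dnaja1 in 3. For Hspa1a, Hspa1b and Hspa2 the groups did not overlap, so leaving out an array could not turn the sign. The background filter, robust eBayes with a trend and the replicate block leave a difference as it is. The kept sign of these genes is therefore no support for their differences. With the mean of their probe sets Hspa4 was at -0.14, Dnaja1 at 0.12 and Hspe1 at -0.21. Of 675 values of 52 named genes, 11 turned sign. An adjusted p of 0.05 in limma was passed by 1 value, that of Dbp without shControl replicate 3. Dbp had been picked for likeness to Hspa1b over arrays that include the contrast. The array left out was also the shControl array nearest to shTNC for Dbp, so nothing is read from this value. The counts of chaperone network genes without shControl replicates 2 and 3 were added after the data were seen.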
